A study of Homo sapiens with 6 samples.

Results

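The genes described here encode the subunits of the mitochondrial respiratory chain that are made from nuclear DNA. They were taken from the gene symbols of the expression files by their names: NDUFA, NDUFB, NDUFC, NDUFS and NDUFV genes for complex I, SDHA to SDHD for complex II, UQCR genes for complex III, COX4 to COX8 genes for complex IV and ATP5 genes for complex V. Of 23619 symbols, 89 were members: 40 for complex I, 4 for complex II, 9 for complex III, 17 for complex IV and 19 for complex V. The pseudogenes ATP5EP2 and UQCRBP1 were left out. COX7A2L and NDUFA4L2 fall under the name rule but not under a stricter list of true subunits used in the closing section. The name rule also takes in an antisense RNA (NDUFB2-AS1), read-through transcripts (NDUFC2-KCTD14, ATP5J2-PTCD1), NDUFA4, which is now counted as a complex IV subunit, and ATP5S and ATP5SL, which are not counted as subunits of ATP synthase itself.

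RNA was sequenced from 6 pools of HG3, an established B cell line derived from chronic lymphocytic leukaemia. There were 3 control pools and 3 pools labelled as resistant to fludarabine, a purine nucleoside drug used against this leukaemia, and pool numbers 17, 18 and 28 occurred once in each group. The sample titles call the resistant pools treated samples. Drug treatment and selected resistance therefore coincide in this comparison and cannot be told apart. The title of the series places the pools in a transposon mutagenesis study, in which a mobile DNA element inserts at many places in the genome before drug selection. No dose or length of drug exposure is given in the sources used here, nor whether the controls also carried insertions. Every library came from the same cell line, so differences between people were not sampled. Nothing in the labels says that the pools were separate cultures throughout, and a p-value here sets a difference against the spread of these libraries alone.

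Complex I oxidises NADH and complex II oxidises succinate, and both pass electrons through ubiquinone to complex III and, by cytochrome c, to complex IV, which reduces oxygen. Complexes I, III and IV pump protons across the inner mitochondrial membrane, and complex V, the ATP synthase, uses the returning protons to make ATP. Most subunits are encoded in the nucleus, several exist as tissue-specific copies, and transcription factors such as NRF1 and the ETS factor GABP are known regulators of these genes.

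Promoter sequence was found in RefSeq (GRCh38.p14) for 70 of the 89 members, and 250 bases before the first listed start of each gene were searched on both strands. The letters of an NRF1 motif (GCGCA, any base, then GCGC) occurred before 14 of 70 members (20%) and before 7.65% of 15843 protein-coding genes. CCGGAAG, the core of an ETS motif, occurred before 16 of 70 members (22.9%) and 11.8% of protein-coding genes. The CCAAT box (CCAAT) was found before 32.9% of members and 34.5% of protein-coding genes, the TATA box letters TATAAA before 10% and 9.23%, and the YY1 letters AAGATGGC before 1 member (1.43%) and 1.39%. None of these motifs contains another, and a match is a description of the sequence and not a measured binding site. The 230 bases before the start are shown for the 5 members on which the account below turns most, chosen after their values were seen. These are a pair of genes for the same c subunit of ATP synthase that differed in opposite directions, and the 3 members with the lowest relative level in resistant pool 18. They lie at chr17:48892557-48892786 on the plus strand (ATP5G1), chr12:53676084-53676313 on the minus strand (ATP5G2), chr19:19515995-19516224 on the plus strand (NDUFA13), chr4:674277-674506 on the minus strand (ATP5I) and chr19:8321376-8321605 on the minus strand (NDUFA7). Capitals mark CCAAT boxes in ATP5G1, the ETS letters in NDUFA13 and NRF1 letters in ATP5I. In NDUFA7 they mark the TATA box letters on the opposite strand, 100 bases before the start. The ATP5G2 window, the first of 3 listed for that gene, held none of the motifs.
ATP5G1: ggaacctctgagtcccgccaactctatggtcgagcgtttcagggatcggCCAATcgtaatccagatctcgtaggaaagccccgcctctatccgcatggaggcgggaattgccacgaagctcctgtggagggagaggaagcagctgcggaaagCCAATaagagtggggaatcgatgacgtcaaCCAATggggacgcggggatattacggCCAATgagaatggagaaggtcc
ATP5G2: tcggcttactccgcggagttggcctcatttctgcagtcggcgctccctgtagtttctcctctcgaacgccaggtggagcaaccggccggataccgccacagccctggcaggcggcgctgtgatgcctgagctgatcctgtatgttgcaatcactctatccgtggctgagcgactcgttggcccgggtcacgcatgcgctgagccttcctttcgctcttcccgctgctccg
NDUFA13: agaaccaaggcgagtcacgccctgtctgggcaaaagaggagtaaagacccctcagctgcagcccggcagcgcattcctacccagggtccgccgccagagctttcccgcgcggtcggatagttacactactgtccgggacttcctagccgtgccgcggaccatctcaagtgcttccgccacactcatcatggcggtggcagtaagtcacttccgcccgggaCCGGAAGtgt
ATP5I: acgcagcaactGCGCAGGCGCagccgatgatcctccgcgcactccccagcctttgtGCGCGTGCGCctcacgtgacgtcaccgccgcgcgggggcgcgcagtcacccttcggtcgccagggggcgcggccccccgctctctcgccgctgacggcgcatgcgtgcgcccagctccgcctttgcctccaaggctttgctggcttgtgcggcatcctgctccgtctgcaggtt
NDUFA7: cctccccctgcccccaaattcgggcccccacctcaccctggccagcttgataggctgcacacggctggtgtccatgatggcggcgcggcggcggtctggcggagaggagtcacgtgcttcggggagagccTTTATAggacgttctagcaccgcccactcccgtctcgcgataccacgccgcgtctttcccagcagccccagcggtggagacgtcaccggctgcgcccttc

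Expression was given as FPKM, which divides fragments by transcript length and library size, so levels of different genes can roughly be set side by side. The summed FPKM differed between libraries, from 3381829 in resistant 18 to 4885819 in control 18. The median over tested genes ran from 10.7 FPKM in resistant 28 to 11.9 FPKM in resistant 18. Between 10936 and 11331 genes per library reached 1 FPKM, and the deepest library, resistant 28, was 1.3 times as deep as control 17, the shallowest. All 8 B cell markers examined were at or above 1 FPKM in every library. Of the markers of other cells, 7 of 8 T and NK cell genes, 7 of 7 erythroid genes, 5 of 8 myeloid genes and 6 of 8 stromal or epithelial genes stayed under 1 FPKM in every library, and the globin genes HBA1, HBA2 and HBB were listed at 0. The summed myeloid markers, mostly S100A9 and ITGAM, spanned 3.90 to 11.4 FPKM in controls and 8.54 to 36.9 FPKM in resistant libraries, and their part in the results was not tested. In bulk RNA, fewer cells of a type and less RNA per cell cannot be told apart.

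In control pools the genes of complex IV stood highest, with a median of 774 FPKM over the 11 tested members. The median was 214 FPKM for complex V, 157 FPKM for complex III, 139 FPKM for complex II and 80.3 FPKM for complex I. COX4I1, a subunit that contacts the catalytic core of complex IV, had 1322 ± 60.8 FPKM and COX6A1 had 1211 ± 96.8 FPKM (mean ± SD, n = 3), and the ranges of these 2 genes over the controls overlapped. Within complex V the catalytic head genes ATP5A1 (776 ± 20.1 FPKM) and ATP5B (712 ± 18.5 FPKM) led, and within complex III UQCRH, the hinge protein, had 878 ± 107 FPKM. In complex I the highest were NDUFA13 at 519 ± 123 FPKM, NDUFB9 at 387 ± 41.8 FPKM and NDUFA11 at 348 ± 39.7 FPKM. Complex II was even in SDHA (163 ± 6.73 FPKM), SDHB (154 ± 9.02 FPKM) and SDHD (123 ± 6.77 FPKM). SDHC, which forms the membrane anchor together with SDHD, was listed at 11.3 ± 4.84 FPKM.

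**Figure D1:**
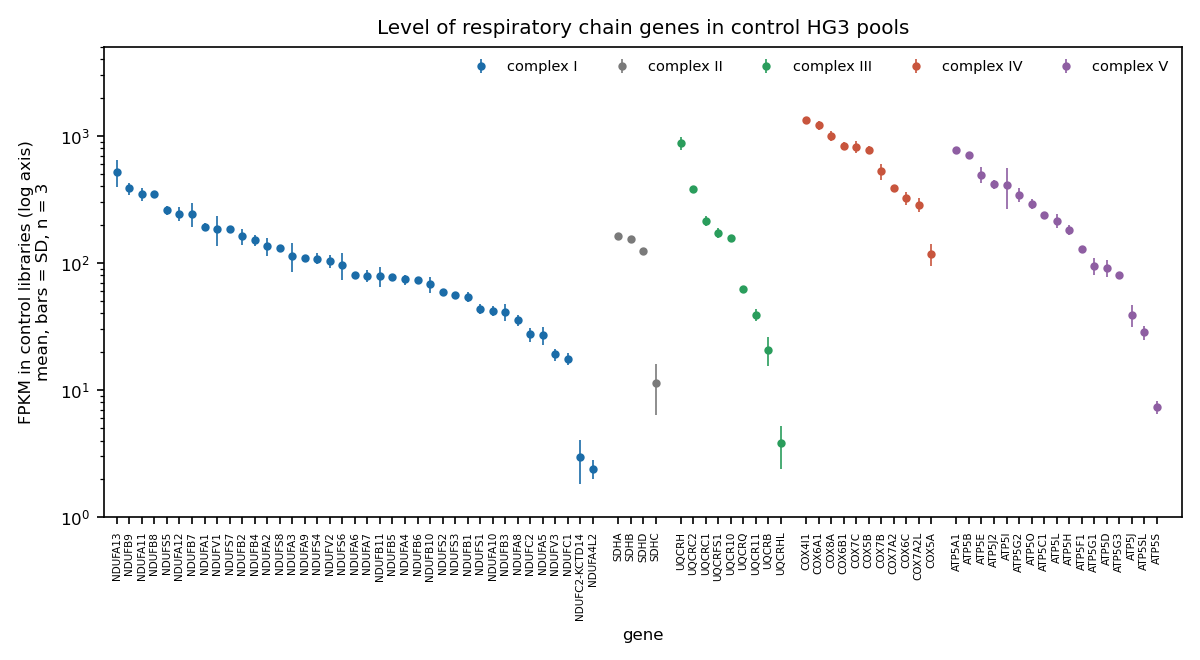
Mean FPKM (log axis) of the 80 tested respiratory chain genes in the 3 control pools, ordered by level within complexes I to V, with bars for the SD (n = 3). Complex IV genes lie between 118 FPKM (COX5A) and 1322 FPKM (COX4I1), and SDHC and UQCRHL lie far below the other members of complexes II and III.

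Where a subunit has more than 1 gene, almost all RNA for complex IV came from a single copy in HG3 cells. The widely expressed COX4I1, COX6A1, COX6B1, COX7A2, COX7B and COX8A were between 389 and 1322 FPKM in controls. Their counterparts known from lung, heart and skeletal muscle or testis (COX4I2, COX6A2, COX6B2, COX7A1, COX7B2, COX8C) stayed under 1 FPKM in all 6 libraries, and COX6A2 was listed at 0 in each. NDUFA4L2, a hypoxia-induced relative of NDUFA4, had 2.41 ± 0.418 FPKM in controls beside 74.3 ± 6.74 FPKM for NDUFA4. UQCRHL, a near-identical intronless copy of UQCRH, had 3.80 ± 1.42 FPKM, and reads of UQCRH may have been assigned to it. The 3 genes for the c subunit were all in use: ATP5G2 had 345 ± 44.3 FPKM, ATP5G1 95.2 ± 14.3 FPKM and ATP5G3 80.4 ± 2.15 FPKM.

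A total of 80 members reached 1 FPKM in at least 3 libraries and were tested. The 9 that did not were the 6 complex IV copies named above, NDUFB2-AS1, ATP5J2-PTCD1 and ATP5L2. Between resistant and control libraries, 0 of the 80 passed an adjusted p of 0.05 in limma, where 0.0354% of all 11307 tested genes passed. At an unadjusted p under 0.05, 7 were lower (7.14% of all genes) and 1 was higher (5.99% of all genes), about the share of all genes for the lower ones. With weights that let limma discount variable libraries, 0 members passed, beside 1.56% of all genes lower and 1.11% higher. Those weights were 0.162 for resistant 18 and between 1.03 and 1.93 for the other libraries.

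The members nevertheless leaned to lower values in resistant pools. They are unlike the tested genes they are set against, with a median level of 125 FPKM against 11.4 FPKM. Their median transcript length was 714 bases, against 1734.5 bases for tested genes with a transcript match. The counts below were not set against genes of alike level. Of 80, 53 had a lower mean on the log2(FPKM + 1) scale, against 48.4% of all genes, and the median difference was -0.17, against 0.01 over all genes. A lower value in every pool was seen for 26 members (32.5%; 18.7% of all genes) and a higher value in every pool for 5 (6.25%; 18.9% of all genes). In the 2 pools other than pool 18 these counts were 41 and 18 (36.3% and 32.9% of all genes), in those other than pool 28 they were 37 and 5 (25.5% and 26.2%), and in those other than pool 17 they were 26 and 15 (25.7% and 28.5%). For 18 members (22.5%) all 3 resistant libraries lay below all 3 controls, against 11.1% of all genes, and for 3 members (3.75%) they lay above, against 10.1%. Over the same 80 genes, the median of control 28 minus control 17 was -0.13, that of control 28 minus control 18 was -0.16 and that of control 18 minus control 17 was 0.01, so the lean was close in size to the difference between control 28 and the other controls. Without pool 28, 32 members lay below the controls without overlap and 3 above (18% and 17.5% of all genes). Without pool 17 these counts were 19 and 12 (20.3% and 20.7%), and without pool 18 they were 35 and 18 (29.3% and 26%). Without resistant 18 alone they were 33 and 11 (25.1% and 20.1%). The lean was not particular to respiratory chain genes. Of 77 tested cytosolic ribosomal protein genes, 25 were lower and 2 higher in every pool (18.7% and 18.9% of all genes). With all 6 libraries, 18 of them lay below the controls without overlap and 2 above (11.1% and 10.1%). Of 75 mitochondrial ribosomal protein genes, these counts were 6 and 12 in every pool, and 5 and 8 without overlap.

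By complex, the median log2 difference was -0.19 for complex I (27 of 39 lower), -0.33 for complex II (3 of 4), -0.06 for complex III (6 of 9), -0.19 for complex IV (7 of 11) and -0.02 for complex V (10 of 17). Within complex I, the 7 nuclear-encoded core subunits that carry the redox centres had a median of -0.06 and the other 32 tested genes -0.19. Within complex V, the 5 genes of the catalytic F1 head had a median of -0.18 with 4 lower. The 7 other genes of the membrane part and stalk had a median of 0.06. The groups within complexes I and V were formed after the values were seen.

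**Figure D2:**
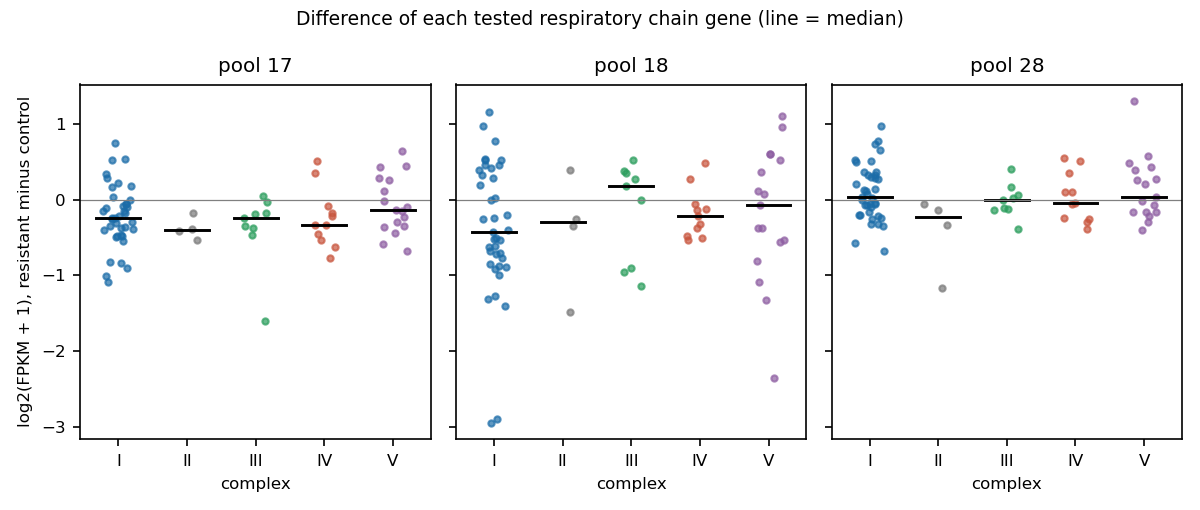
Log2(FPKM + 1) of the resistant minus the control library of the same pool number for each of the 80 tested genes (points), by complex, with the median as a line. Pools 17 and 18 have medians of -0.23 and -0.26 over all 80 genes, pool 28 has -0.01, and the points spread most widely in pool 18.

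The pools differed in how the members moved. In pool 17, 62 of 80 members were lower (52.8% of all genes), with a median of -0.23 and an interquartile range of 0.39. In pool 18, 50 were lower (46.4% of all genes), with a median of -0.26 but an interquartile range of 1.06, where that of all genes was 0.81. In pool 28, 41 were lower (50.6% of all genes), with a median of -0.01 and an interquartile range of 0.48. The contrast of medians depended on scaling. With all libraries set to a common distribution (quantile normalization), the medians were -0.29, -0.12 and -0.11 in pools 17, 18 and 28. The median of complex III was -0.24 in pool 17, -0.01 in pool 28 and, on the other side of 0, 0.18 in pool 18. Complex I had its lowest median in pool 18, at -0.42, beside -0.24 in pool 17 and 0.03 in pool 28. Differences between pools were not tested because each pool holds 1 library per group. In complex II all 4 genes were lower in pools 17 and 28 and 3 of 4 in pool 18.

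Pool 18 held the largest single differences. Lower by more than 0.5 were 31 members (19.7% of all genes) and by more than 1 were 10 (7.24%), while 12 were higher by more than 0.5 (21.3%) and 2 by more than 1 (5.41%). NDUFA13, an accessory subunit of complex I also known as the cell death regulator GRIM-19, had 590.1, 589.6 and 377 FPKM in control 17, 18 and 28 and 605, 75.6 and 739.8 FPKM in the resistant pools of the same numbers. It was thus 7.79-fold lower in resistant 18 than in control 18, and 1.96-fold higher in pool 28. NDUFA7, an accessory subunit of the NADH-binding arm, had 85.1, 84.4 and 69.3 FPKM in controls and 60.1, 10.5 and 72.9 FPKM in resistant pools, 8.04-fold lower in pool 18. ATP5I, the e subunit that helps ATP synthase form dimers, had 527, 458 and 250.2 FPKM in controls and 641, 88.7 and 619 FPKM in resistant pools. It was 5.17-fold lower in pool 18 and 2.48-fold higher in pool 28. For all 3 genes resistant 18 stood alone, and the groups overlapped.

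Over all 3 pools these differences were within the spread of the libraries. The log2 difference was -0.65 for NDUFA13 (SE 0.81, limma adjusted p = 0.774), -1.11 for NDUFA7 (SE 0.66, adjusted p = 0.507) and -0.26 for ATP5I (SE 0.76, adjusted p = 0.920). Without resistant 18 the difference was 0.40 for NDUFA13, -0.26 for NDUFA7 and 0.68 for ATP5I (limma adjusted p = 0.375, 0.374 and 0.261). ATP5D, the delta subunit of the F1 head, was likewise lower in pool 18 (108 to 42.7 FPKM) and higher in pool 17 (85.3 to 134 FPKM). NDUFS1, the largest iron-sulphur subunit of complex I, went from 39.3 to 88.7 FPKM in pool 18 and from 47.3 to 32 FPKM in pool 17. How shared reads were counted, and whether by strand, is not given in the sources used here, and in GENCODE v29 exons of 21 of the 80 members overlap another listed gene. NDUFA13 overlaps YJEFN3 on its own strand, NDUFS1 overlaps GCSHP3 on its own strand and EEF1B2 on the other, and ATP5I overlaps MYL5 on the opposite strand, so their values are uncertain to that extent.

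Among complex I genes with alike movement in every pool, NDUFA8 had the largest mean difference upward and NDUFB4 the largest downward. NDUFA8, an accessory subunit on the intermembrane side, had 38.6, 31.2 and 36.3 FPKM in controls and 49.1, 62.4 and 51.8 FPKM in resistant pools 17, 18 and 28. Every resistant library was above every control, 1.54-fold in the means (log2 difference 0.60, SE 0.17), and limma's adjusted p was 0.234. NDUFB4, an accessory subunit of the membrane arm, had 159, 162 and 135 FPKM in controls and 89.6, 64.9 and 112 FPKM in resistant pools. All resistant libraries were below all controls, 1.71-fold in the means (log2 difference -0.80, SE 0.24, limma adjusted p = 0.240). NDUFS5, an accessory subunit of the same arm, had 267, 278 and 234 FPKM in controls and 311, 404 and 337 FPKM in resistant pools, without overlap (log2 difference 0.43, SE 0.19, limma adjusted p = 0.399). NDUFA12, an accessory subunit beside the NADH-binding arm, showed no shared direction. Its values of 220.3, 232 and 282 FPKM in controls stood beside 123, 396 and 175 FPKM in resistant pools, so that pool 18 was higher and the other pools lower. NDUFA11, a membrane arm subunit, had 348 ± 39.7 FPKM in controls and 343 ± 74.5 FPKM in resistant libraries. The read-through NDUFC2-KCTD14, whose exons are shared with NDUFC2 and KCTD14, had 2.52, 4.21 and 2.11 FPKM in controls and 0.666, 1.15 and 2.59 FPKM in resistant pools, which overlapped.

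NDUFA4 and NDUFA4L2 are related genes with different values. NDUFA4 had 68.0, 73.4 and 81.4 FPKM in controls and 33.4, 55.4 and 63.7 FPKM in resistant pools, below the controls without overlap (log2 difference -0.58, SE 0.26, limma adjusted p = 0.392). NDUFA4L2 stayed between 0.974 and 4.2 FPKM over the 6 libraries, and its log2 difference was 0.13 (SE 0.37).

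In complex II, the membrane anchor genes were lower in every pool. SDHC had 5.81, 12.9 and 15.1 FPKM in control 17, 18 and 28 and 4.11, 3.96 and 6.18 FPKM in the resistant pools. The highest resistant value lay just above the lowest control, so the groups overlapped. The mean was 2.37-fold lower (log2 difference -1.02, SE 0.34, limma adjusted p = 0.289), the largest mean difference among members with alike movement in all pools. SDHD had 121, 118 and 131 FPKM in controls and 83.7, 98.2 and 104 FPKM in resistant pools, without overlap (log2 difference -0.37, SE 0.17, limma adjusted p = 0.399). SDHA, the flavoprotein, was also lower in every resistant library, at 133 ± 11.6 FPKM against 163 ± 6.73 FPKM (limma adjusted p = 0.492). SDHB, the iron-sulphur subunit, had 161 ± 26.7 FPKM against 154 ± 9.02 FPKM, with resistant 18 highest at 192 FPKM. SDHC and SDHD each have exons that overlap another listed gene on the opposite strand.

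In complex III, UQCRHL had the smallest p. It was at 4.87, 4.35 and 2.18 FPKM in controls and 0.928, 1.43 and 1.93 FPKM in resistant pools, without overlap (log2 difference -0.95, SE 0.28, limma adjusted p = 0.240). Its parent gene UQCRH had 878 ± 107 FPKM in controls and 877 ± 151 FPKM in resistant libraries. UQCRFS1, the Rieske iron-sulphur protein, had 155, 183 and 177 FPKM in controls and 119, 182 and 135 FPKM in resistant pools, overlapping only through resistant 18 (log2 difference -0.26, SE 0.21, limma adjusted p = 0.634). UQCRC2, a core protein, had 385 ± 14.5 FPKM in controls and 392 ± 73.2 FPKM in resistant libraries.

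In complex IV no tested member was higher in all 3 pools (18.9% of all genes) and 6 of 11 were lower in all 3 (18.7% of all genes). COX7C, a small membrane subunit, had 816, 919 and 731 FPKM in controls and 476, 646 and 596 FPKM in resistant pools 17, 18 and 28. The groups did not overlap and the mean was 1.44-fold lower (log2 difference -0.53, SE 0.22, limma adjusted p = 0.371). COX6C, another small membrane subunit, had 338, 348 and 279 FPKM in controls and 247, 240.4 and 233 FPKM in resistant pools, again without overlap (log2 difference -0.41, SE 0.18, limma adjusted p = 0.387). COX6B1, on the intermembrane side, had 849, 879 and 779.6 FPKM in controls and 548, 759 and 656 FPKM in resistant pools, without overlap (log2 difference -0.36, SE 0.21, limma adjusted p = 0.5). The most abundant members differed less: COX4I1 had 1322 ± 60.8 FPKM in controls and 1167 ± 161 FPKM in resistant libraries, and COX6A1 had 1211 ± 96.8 and 1329 ± 252 FPKM. COX7A2 had 389 ± 9.30 FPKM in controls and 555, 360.1 and 555 FPKM in resistant pools, with resistant 18 below the controls and the others above. COX7B, likewise, was above the controls in resistant 17 and 28 and below them in resistant 18. COX8A had 1006 ± 92.5 FPKM in controls and 836 ± 163 FPKM in resistant libraries.

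In complex V, 2 genes for the same mature c subunit differed in opposite directions. ATP5G1, whose promoter window above holds 4 CCAAT boxes, had 89.1, 112 and 84.8 FPKM in controls and 121, 239.6 and 115 FPKM in resistant pools 17, 18 and 28. Every resistant library lay above every control, 1.67-fold in the means (log2 difference 0.66, SE 0.31, limma adjusted p = 0.417), and without resistant 18 the log2 difference was 0.32. ATP5G2 had 369, 372 and 294 FPKM in controls and 271, 175 and 252 FPKM in resistant pools. All resistant libraries lay below all controls, 1.48-fold in the means (log2 difference -0.58, SE 0.23, limma adjusted p = 0.359). ATP5G3 had 81.4, 81.9 and 78.0 FPKM in controls and 69.5, 118 and 63.2 FPKM in resistant pools, with resistant 18 above and the others below.

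As a share of the 3 genes' summed FPKM, ATP5G1 was 16.5%, 19.7% and 18.6% in controls and 26.3%, 45.0% and 26.7% in resistant pools (18.3% ± 1.62 against 32.7% ± 10.7, SD, n = 3 each). The share of ATP5G2 was 68.4%, 65.8% and 64.3% in controls and 58.7%, 32.9% and 58.6% in resistant pools. Neither gene's shares overlapped between the groups, and the exact two-sided permutation p was 0.1 for each, the smallest that 3 against 3 libraries can give. Without resistant 18 the difference between the group means went from 14.4 to 8.20 percentage points for ATP5G1 and from -16.1 to -7.53 for ATP5G2. The share of ATP5G3 was 15.6% ± 1.36 in controls and 17.3% ± 4.15 in resistant libraries (exact permutation p = 0.7). The choice of these genes was made with earlier results of the data known, and the shares of 1 library are bound to sum to the whole.

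**Figure D3:**
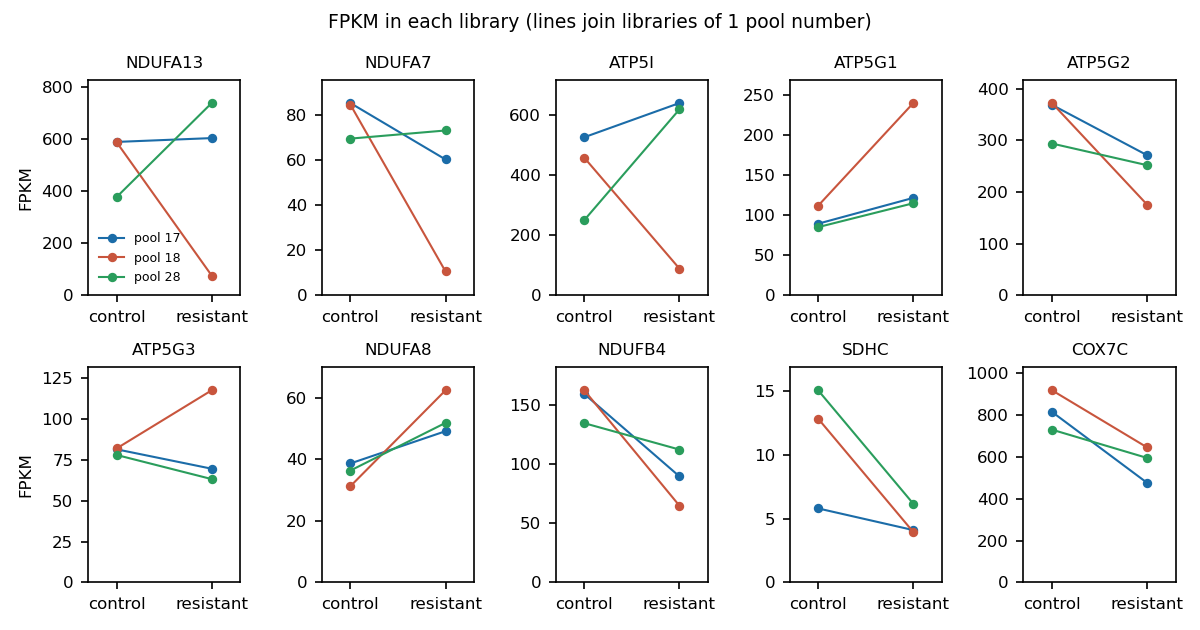
FPKM of 10 respiratory chain genes in each library, with lines joining the control and resistant library of 1 pool number. NDUFA13, NDUFA7 and ATP5I part in pool 18, where resistant 18 is at 75.6, 10.5 and 88.7 FPKM, while ATP5G1 and NDUFA8 lie higher and ATP5G2, NDUFB4 and COX7C lower in all 3 resistant libraries than in any control.

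The 2 most abundant subunits of ATP synthase gave no shared direction over the pools. ATP5A1, the alpha subunit, had 799, 765 and 764 FPKM in controls and 499, 802 and 580.2 FPKM in resistant pools, with resistant 18 just above the controls and the others below. ATP5B, the beta subunit, had 704, 698 and 733 FPKM in controls and 547, 1058 and 652 FPKM in resistant pools. Resistant 18 was thus the highest library for ATP5B while the other resistant pools were below the controls. The genes of 3 other subunits had lower values in every pool. ATP5F1, the b subunit of the outer stalk, had 134, 132 and 120.0 FPKM in controls and 104, 101 and 114 FPKM in resistant pools, without overlap (log2 difference -0.27, SE 0.16, limma adjusted p = 0.511). ATP5O, which joins that stalk to the head, had 291 ± 27.2 FPKM in controls and 233 ± 36.4 FPKM in resistant libraries, which overlapped (log2 difference -0.33, SE 0.20, limma adjusted p = 0.512). ATP5C1, the gamma subunit that forms the rotor stalk, had 239 ± 7.74 FPKM in controls and 212 ± 12.7 FPKM in resistant libraries, without overlap (limma adjusted p = 0.689).

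Transcript GC content was related to the differences within a pool, in members and in all genes alike. Across the 80 members, Spearman's rho between GC content and the difference was negative in pool 18, at -0.28, and positive in pool 17 (0.18) and pool 28 (0.15), and across 10385 genes with a transcript match these values were -0.27, 0.08 and 0.21. Genes share libraries and are not independent replicates, so these are descriptions. The 26 members of highest GC content (53.9% to 68.7%) had a median difference of -0.57 in pool 18, with 22 lower. The 26 of lowest GC content (34.4% to 46.0%) had -0.06, with 15 lower, and the 28 in between had 0.05, with 13 lower, so the medians did not follow GC content step by step. After the trends with GC content and length were removed from every library, rho in pool 18 was -0.02 over the members. Their median difference was then -0.11 over all pools and -0.23, -0.23 and 0.02 in pools 17, 18 and 28. NDUFA13, NDUFA7 and ATP5I kept differences of -2.69, -2.73 and -1.88 in pool 18 with the trends removed.

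**Figure D4:**
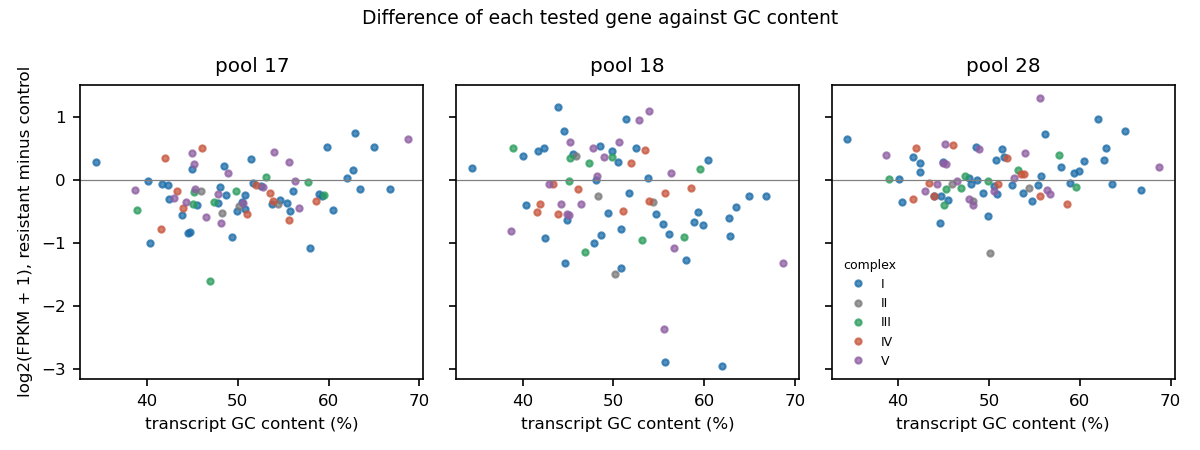
Difference of each of the 80 tested genes on the log2(FPKM + 1) scale, resistant minus control, against the GC content of its transcripts (%), 1 panel per pool, coloured by complex. Points slope down in pool 18 (rho -0.28) and slightly up in pools 17 (0.18) and 28 (0.15), and NDUFA13, NDUFA7 and ATP5I lie below the rest in pool 18.

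By promoter letters, the 13 tested members with an NRF1 motif had a median log2 difference of -0.25 and the 52 without it -0.10. The 16 with an ETS motif had -0.09 and the 49 without it -0.19. The 20 with a CCAAT box had -0.04 and the 45 without it -0.19. These groups were formed after the values were seen and were not tested.

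The groups' mean shares of RNA from respiratory chain genes differed by less than the spread between libraries. The members took 2.73%, 2.57% and 2.75% of the FPKM of protein-coding genes in controls and 2.41%, 2.82% and 2.75% in resistant pools, a mean of 2.68% ± 0.0971 against 2.66% ± 0.217 (exact permutation p = 1). The exact permutation p was 0.6, 0.4, 0.9, 0.9 and 0.7 for complexes I to V taken singly. Cytosolic ribosomal protein genes, which take up much of this FPKM, had a median difference of -0.38 over all pools and -1.02 in pool 18. With them left out of the total, the members' share was 4.31%, 4.08% and 4.14% in controls and 3.78%, 3.59% and 4.30% in resistant pools (exact permutation p = 0.3). Resistant 18 was thus the highest library of its group by the first share and the lowest by the second.

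**Figure D5:**
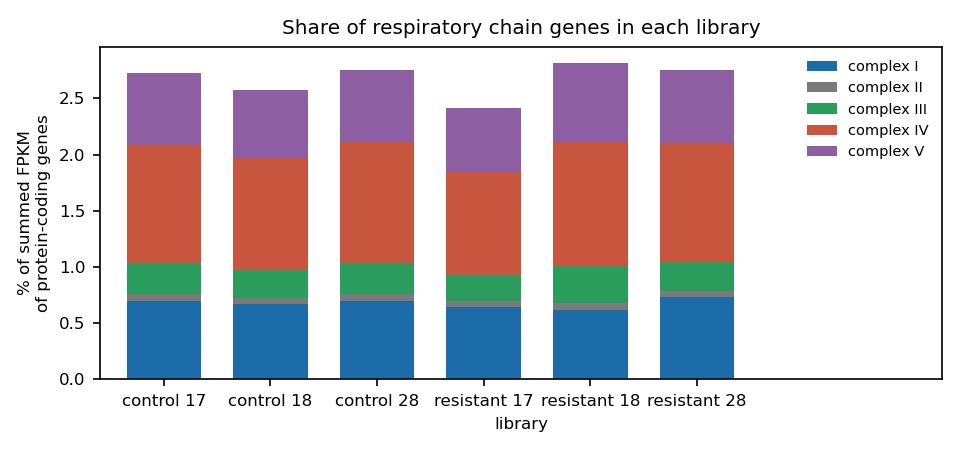
Percent of the summed FPKM of protein-coding genes taken by the genes of complexes I to V (stacked bars) in each of the 6 libraries. The whole share lies between 2.41% (resistant 17) and 2.82% (resistant 18), and complex IV is the largest part in each library.

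Of 105 tested genes in 7 lists of factors that build, feed or regulate the chain, 0 passed the limma threshold, and at an unadjusted p under 0.05 4 were lower and 5 higher, no more than the 7.14% and 5.99% of all genes. With array weights, 1 of them, the citrate synthase gene CS, passed with a lower value, as did 1.56% of all genes. Of 13 complex I assembly factors 12 had higher means in resistant libraries, as had 51.6% of all genes, with a median of 0.18. Their medians were 0.071, 0.37 and 0.24 in pools 17, 18 and 28, and 3 were higher in every pool (18.9% of all genes). TIMMDC1, which helps insert the membrane arm, had 28.9, 30.1 and 26.8 FPKM in controls and 32.8, 36.8 and 36.2 FPKM in resistant pools, without overlap (limma adjusted p = 0.443). ACAD9, also an assembly factor, had 8.31 ± 2.06 FPKM in controls and 14.9 ± 8.36 FPKM in resistant libraries, with resistant 18 at 24.5 FPKM. Of 21 assembly factors of complex IV, 13 were higher with a median of 0.17, among them COA6 (34.1 ± 2.80 to 46.3 ± 6.20 FPKM) and COX14 (93.2 ± 3.22 to 120.2 ± 12.3 FPKM), both without overlap. Of 10 assembly factors of complexes II, III and V, 6 were higher with a median of 0.09. ATPAF1, a chaperone of the F1 head, had 19.3, 20.7 and 19.1 FPKM in controls and 27.0, 39.6 and 24.8 FPKM in resistant pools, without overlap (log2 difference 0.58, SE 0.20, limma adjusted p = 0.307). SDHAF2, which attaches the flavin to SDHA, had 24.3 ± 0.549 FPKM in controls and 26.5 ± 1.20 FPKM in resistant libraries.

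Of 17 genes of electron carriers and ubiquinone synthesis, 12 were higher (51.6% of all genes), with a median of 0.16. In every pool, 5 of them were higher (18.9% of all genes). DHODH, which feeds electrons from pyrimidine synthesis to ubiquinone, had 8.48 ± 1.79 FPKM in controls and 14.6 ± 3.92 FPKM in resistant libraries, without overlap (limma adjusted p = 0.286). CYC1, the cytochrome c1 of complex III, which the name rule does not take in, had 309, 424 and 309 FPKM in controls and 279, 186 and 282 FPKM in resistant pools, without overlap (limma adjusted p = 0.449). Of 9 partners of ATP synthase, 7 were lower (48.4% of all genes), with a median of -0.31. The partners' medians within pools 17, 18 and 28 were smaller, at -0.12, -0.024 and -0.17. In every pool, 4 were lower (18.7% of all genes), and 1 lay below the controls without overlap (11.1% of all genes). Those with a lower mean included its small subunits USMG5 (150.4 ± 7.79 to 110.1 ± 42.2 FPKM) and C14orf2 (207 ± 32.5 to 163 ± 15.2 FPKM).

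Among 18 regulators of mitochondrial gene expression 15 were higher (51.6% of all genes), with a median of 0.17. Their medians were 0.017, 0.40 and 0.084 in pools 17, 18 and 28, and 5 were higher in every pool (18.9% of all genes). The 2 of smallest p were lower. PPARGC1B, a coactivator of respiratory genes, had 4.69, 4.95 and 7.80 FPKM in controls and 2.79, 2.90 and 3.07 FPKM in resistant pools, without overlap (log2 difference -0.77, SE 0.20, limma adjusted p = 0.213). The transcription factor NRF1 had 6.16, 7.66 and 7.63 FPKM in controls and 5.13, 5.45 and 5.10 FPKM in resistant pools, without overlap (log2 difference -0.38, SE 0.15, limma adjusted p = 0.352). Of 17 genes of the citric acid cycle and pyruvate dehydrogenase 8 were lower (48.4% of all genes), with a median of 0.04. CS, citrate synthase, had 38 ± 6.92 FPKM in controls and 21.5 ± 5.24 FPKM in resistant libraries, without overlap (log2 difference -0.80, SE 0.23, limma adjusted p = 0.232). PDHB, a subunit of pyruvate dehydrogenase, had 26.7 ± 4.44 FPKM in controls and 45.4 ± 15.8 FPKM in resistant libraries, without overlap (limma adjusted p = 0.338). The 75 mitochondrial ribosomal protein genes had a median of 0.06 with 35 lower, and the 77 tested cytosolic ones had 63 lower.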

How the data were processed

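Total RNA of 3 control and 3 resistant HG3 pools was measured, 1 library each. The authors deposited FPKM for 23619 gene symbols per library, with decimal commas, per the file headers. The build was hg19, and the tools named were HTSeq 0.6.1, DESeq2, Cufflinks 2.2.1 and TopHat2 2.0.4, per the submitters' processing notes. What each did, the annotation and the use of strand were not given in the sources used here. No coordinates are printed for the measured values.

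FPKM were used as deposited. Genes of at least 1 FPKM in at least 3 of 6 libraries (11307) were fitted in limma 3.58.1 under R 4.3.3, using lmFit and a trended eBayes, after adding 1 and taking log2. Two-sided p-values were adjusted by Benjamini and Hochberg's method across those genes, and 0.05 was the threshold. Fits that left out a library or pool kept the same genes. Adding 1 understates the change of low genes. Differences within a pool compare 1 library with another and carry no test. Single shares were compared by an exact two-sided permutation test in Python 3.11.15 with scipy 1.17.1. A fold is the ratio of 2 mean FPKM or, within a pool, of 2 libraries, and ± gives the SD of 3 libraries. Relative depth came from ratios of low FPKM: 46.7% to 52.0% of them were ratios of whole numbers up to 4 (tolerance 0.02 on the log2 scale), against medians of 4.35% to 5.12% at other depths. Absolute depth is unknown, so no counting interval is given.

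GC content and length were medians over protein-coding transcripts of GENCODE v29 (GRCh38), matched for all 80 tested members and 91.8% of tested genes, and were removed as a loess surface of span 0.5. Because the series describes its pools as pairs, the pool number was also fitted as a block. Members, lists and tests were chosen with earlier results of these data known. Members named were, per complex, the 2 of smallest p and the 2 of highest level, copies of 1 subunit, up to 3 per direction of largest difference among those alike in all pools, and up to 2 per direction of largest difference within each pool. From every other list the 2 of smallest p were named. NDUFB9 as a level, ATP5F1, ATP5O and ATP5C1 were named after their values were seen.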

Additional observations from a re-analysis of the deposited data

How the results depend on the processing

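In limma, 0 respiratory chain genes passed under every alternative tried, and in the reported fit 7 were lower and 1 higher at an unadjusted p under 0.05. Over the alternatives, the lower ones numbered from 1 (without pool 17) to 18 (array weights), and the higher ones from 0 (without pool 28) to 6. Without resistant 18 there were 16 lower and 6 higher, where 12.9% and 10.5% of all genes were. The median over all members kept its sign in each alternative (reported as -0.17). With 3 libraries a group and 1 library per pool, only differences that are large beside the spread can pass, and leaving out a library leaves 2 against 3. The replicate block, whose pairs correlated at 0.15, 0.09 and -0.02 in pools 17, 18 and 28, left 3 of all genes past the threshold and 0 members. Over all genes, 4 passed in the reported fit, 2 with GC and length trends removed, 0 with the replicate block and those trends removed, 301 with array weights, 18 without pool 18 and 3 to 13 with 1 library left out (13 without resistant 18, 8 without resistant 17). The complex II median was -0.42 after quantile normalization, and the median over all members in pool 18 was -0.12, close to the -0.11 of pool 28. The complex V median was -0.12 without pool 17, -0.15 without pool 28 and -0.15 over a list of true subunits. That list counts NDUFA4 under complex IV and leaves out COX7A2L, among others. Over it, the median was -0.28 for complex IV and -0.14 for complex I. The complex III median, reported as -0.06, was 0.035 without pool 17, 0.018 without control 17 and 0.012 without resistant 28, but -0.16 without pool 18 or control 28, -0.14 without resistant 18 and -0.11 with array weights. The complex V median was 0.0090 without control 18. The causes were not tested. Absolute depth is unknown, so counting error is not known for genes of low FPKM such as SDHC, UQCRHL, NDUFA4L2 and NDUFC2-KCTD14.

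Of 643 alternative values of 34 named members, 589 kept their direction and 54 values, of 14 genes, changed it. After quantile normalization SDHB was at -0.0053 and UQCRH at 0.10. With GC and length trends removed, with or without the block, UQCRH was at 0.025 and ATP5I at 0.11. With array weights, NDUFA13 was at 0.20, NDUFA11 at 0.086, SDHB at -0.046, UQCRC2 at -0.11, COX6A1 at -3.53e-05, ATP5B at -0.23, ATP5D at 0.22, NDUFS1 at -0.25 and ATP5I at 0.52. Without pool 17, UQCRH was at 0.16, NDUFA4L2 at -0.19, ATP5G3 at 0.11 and NDUFA12 at 0.045. Without pool 18, NDUFA13 was at 0.50, NDUFA11 at 0.24, SDHB at -0.12, UQCRC2 at -0.16, COX6A1 at -0.058, ATP5B at -0.27, ATP5D at 0.43, NDUFS1 at -0.40 and ATP5I at 0.79. Without pool 28, COX7B was at -0.015, NDUFA4L2 at -0.066 and ATP5G3 at 0.15.

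With 1 library left out in turn, the log2 difference spanned -0.15 to 0.079 for UQCRH, -0.27 to 0.17 for ATP5G3, -0.15 to 0.15 for NDUFA11, -0.14 to 0.091 for UQCRC2, -0.037 to 0.43 for COX7B, -0.12 to 0.58 for NDUFA4L2 and -0.73 to 0.12 for NDUFA12. It spanned -1.24 to 0.40 for NDUFA13, -0.080 to 0.12 for SDHB, -0.028 to 0.22 for COX6A1, -0.25 to 0.22 for ATP5B, -0.51 to 0.30 for ATP5D, -0.33 to 0.39 for NDUFS1 and -0.74 to 0.68 for ATP5I. The difference in share, in percentage points, spanned -0.670 to 3.01 for ATP5G3 among the c subunit genes, -0.0982 to 0.104 for all members, -0.0530 to 0.00336 for complex I, -0.0215 to 0.0276 for complex III, -0.0588 to 0.0340 for complex IV and -0.0129 to 0.0546 for complex V.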
